A study of Mus musculus with 24 samples.

Results

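Of 51912 genes in the table of normalized counts, 9 transcription factors of dentate granule neurons and other hippocampal and cortical neurons were followed in the archicortex (ARK), the dorsomedial edge of the embryonic telencephalon from which the hippocampus and the dentate gyrus form. They are *Prox1*, *Zbtb20*, *Neurod1*, *Neurod2*, *Neurod6*, *Bhlhe22*, *Tbr1*, *Bcl11b* and *Fezf2*, chosen by name. All 9 were among the 16454 genes that were tested, those reaching 10 normalized counts in 4 or more libraries.

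Messenger RNA of the dissected ARK was sequenced in 24 libraries, 4 in each of 6 groups, from mice of mixed C57BL/6J and MF1 background. The Sox1Cre mutants were Sox9fl/fl;Sox1Cre/+ embryos, collected at E12.5 (libraries A9 to A12) and E13.5 (A1 to A4), and their controls were Sox9+/+;Sox1Cre/+ embryos at E12.5 (A13 to A16) and E13.5 (A5 to A8). The NestinCre mutants were Sox9fl/fl;Nestin-Cre embryos at E13.5 (A17 to A20), with Sox9+/+;Nestin-Cre controls (A21 to A24). Controls therefore carry the same Cre as the mutants, and in the Sox1Cre line 1 *Sox1* allele of every embryo is replaced by Cre. The 2 drivers differ in timing and place. Sox1Cre recombines early and throughout the forebrain primordium, so it covers both the dentate neuroepithelium (DNE) and the cortical hem (CH), the signalling centre beside it. Recombination by Nestin-Cre comes later and largely spares the CH. Libraries held between 16163560 and 49445219 reads assigned to genes (median 23016925), and the lowest count of any of the 9 factors in any library was 58 reads. Library A1 stood apart from the other 3 E13.5 Sox1Cre mutants: chi-square per degree of freedom between the reads of 2 libraries was 58.5 to 78.0 for its 3 pairs and at most 34.2 for all other pairs within groups. Without A1, still none of the 9 factors passed in these mutants against controls, and with age in mutants *Tbr1* was the 1 call lost. The labels do not say whether the 4 libraries of a group came from separate litters, so p-values measure the spread between these libraries.

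Neurons of the hippocampus are born in sequence. Progenitors of the ARK neuroepithelium switch on basic helix-loop-helix proneural factors, pass through an intermediate progenitor and, once they leave the cell cycle, switch on factors of the NeuroD family that carry differentiation forward. Regional and subtype factors then set what kind of neuron forms: *Prox1* in dentate granule neurons, *Zbtb20* across the hippocampal fields, and *Tbr1*, *Bcl11b* and *Fezf2* in early-born and deep-layer glutamatergic neurons. At E12.5 and E13.5 most of the ARK is still neuroepithelium, and granule neuron production lies ahead.

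Promoter sequence from RefSeq (build GRCm38.p6) was found for 8 of the 9 factors, in 9 windows because *Prox1* has 2. The 250 bases before the start site are shown for 4 factors that behaved differently: *Neurod6* and *Neurod2*, which rose together with age, *Prox1*, the granule neuron factor, and *Fezf2*, whose level changed least with age in controls. Both strands of the 300 base windows, which run from 250 bases before to 50 bases after the start, were searched for CAGATG, a form of the E-box bound by NeuroD proteins, and for ACAATG, a core motif of SOX proteins. Capitals mark CAGATG.
*Prox1*, chr1:190170828-190171077, minus strand: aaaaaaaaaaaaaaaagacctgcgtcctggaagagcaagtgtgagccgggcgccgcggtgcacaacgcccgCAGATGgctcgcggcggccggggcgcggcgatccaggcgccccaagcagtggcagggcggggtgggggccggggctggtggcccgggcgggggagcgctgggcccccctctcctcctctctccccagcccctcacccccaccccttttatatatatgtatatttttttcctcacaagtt
*Neurod2*, chr11:98329646-98329895, minus strand: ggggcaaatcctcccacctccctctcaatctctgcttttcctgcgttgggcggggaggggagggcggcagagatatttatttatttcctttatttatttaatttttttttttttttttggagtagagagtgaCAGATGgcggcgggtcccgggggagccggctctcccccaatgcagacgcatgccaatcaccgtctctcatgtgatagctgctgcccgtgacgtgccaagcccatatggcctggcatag
*Neurod6*, chr6:55681264-55681513, minus strand: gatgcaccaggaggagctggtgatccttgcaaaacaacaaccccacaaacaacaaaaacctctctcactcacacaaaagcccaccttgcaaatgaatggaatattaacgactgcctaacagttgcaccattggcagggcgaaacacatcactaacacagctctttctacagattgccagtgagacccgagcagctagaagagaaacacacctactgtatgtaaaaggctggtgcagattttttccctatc
*Fezf2*, chr14:12345866-12346115, minus strand: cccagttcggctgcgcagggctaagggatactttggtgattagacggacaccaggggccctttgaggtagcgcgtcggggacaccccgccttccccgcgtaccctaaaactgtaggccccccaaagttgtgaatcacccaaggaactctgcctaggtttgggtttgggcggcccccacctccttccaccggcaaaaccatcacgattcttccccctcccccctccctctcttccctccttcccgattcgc
CAGATG was found once in this *Prox1* window, its first base at position -179 from the start site, and once in the *Neurod2* window, at -118. ACAATG was found in none of the 9 windows. Of 32851 RefSeq promoter windows of the same length, 17.2% held CAGATG and 12.6% held ACAATG. The *Fezf2* start that RefSeq gives lies inside the annotated gene, which has a longer transcript. These matches are letters in a window and were not tested as sites.

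*Sox9* itself was read first, as a check of the genotypes. At E13.5 its normalized count was 5218, 5912, 5449.6 and 5731 in Sox1Cre controls and 3563, 2828, 3384 and 3677 in Sox1Cre mutants. NestinCre controls stood at 5636, 4979, 4586 and 5406 and NestinCre mutants at 3089, 2997, 3083 and 3369. At E12.5 the controls stood at 4391, 5265, 4237 and 4194 and the mutants at 2785, 1733, 2593 and 1928. Cre removes exons 2 and 3 of the floxed allele, so reads of the rest of the gene can remain. Every mutant library lay below every library of its controls in all 3 comparisons. The log2 change was -0.74 (adjusted p = 0.0021), -0.71 (adjusted p = 0.0297) and -1.02 (adjusted p = 6.28e-05) in the same order, by limma on log2(normalized count + 1) with Benjamini-Hochberg adjustment over the genes tested, as for every adjusted p that follows.

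The 9 factors were not detectably changed in *Sox9* mutants, while most of them rose between E12.5 and E13.5. None of the 9 passed the threshold of 0.05 in Sox1Cre mutants at E13.5, in NestinCre mutants at E13.5 or in Sox1Cre mutants at E12.5. Of all genes tested, 0.924%, 0.0669% and 0.723% passed. An unadjusted p under 0.05 was found for 0, 0 and 2 of the 9. The share of all genes under that unadjusted cut is not given, here or for the lists below. Such counts are therefore not read as an excess. From E12.5 to E13.5, 6 of the 9 rose in Sox1Cre controls and 7 of the 9 rose in Sox1Cre mutants. Of all genes tested, 6.33% and 13.8% rose. With age, 11.5% and 25.9% of all genes tested passed in either direction, and no factor fell in either genotype. In controls age ran together with the level of *Xist*, an RNA of the inactive X chromosome of females. With *Xist* as a covariate all 6 calls in controls were lost (adjusted p from 0.110 to 0.452), and 0 of all genes tested passed. The libraries of the 2 ages did not overlap, with E13.5 higher, for 4 factors in controls and 7 in mutants, against 9.23% and 12.4% of all genes tested. *Neurod6* and *Bhlhe22* rose most, and *Bcl11b* and *Fezf2* were the 2 factors that passed in neither genotype. In bulk tissue, more cells of a type and more RNA per cell cannot be told apart.

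**Figure D1:**
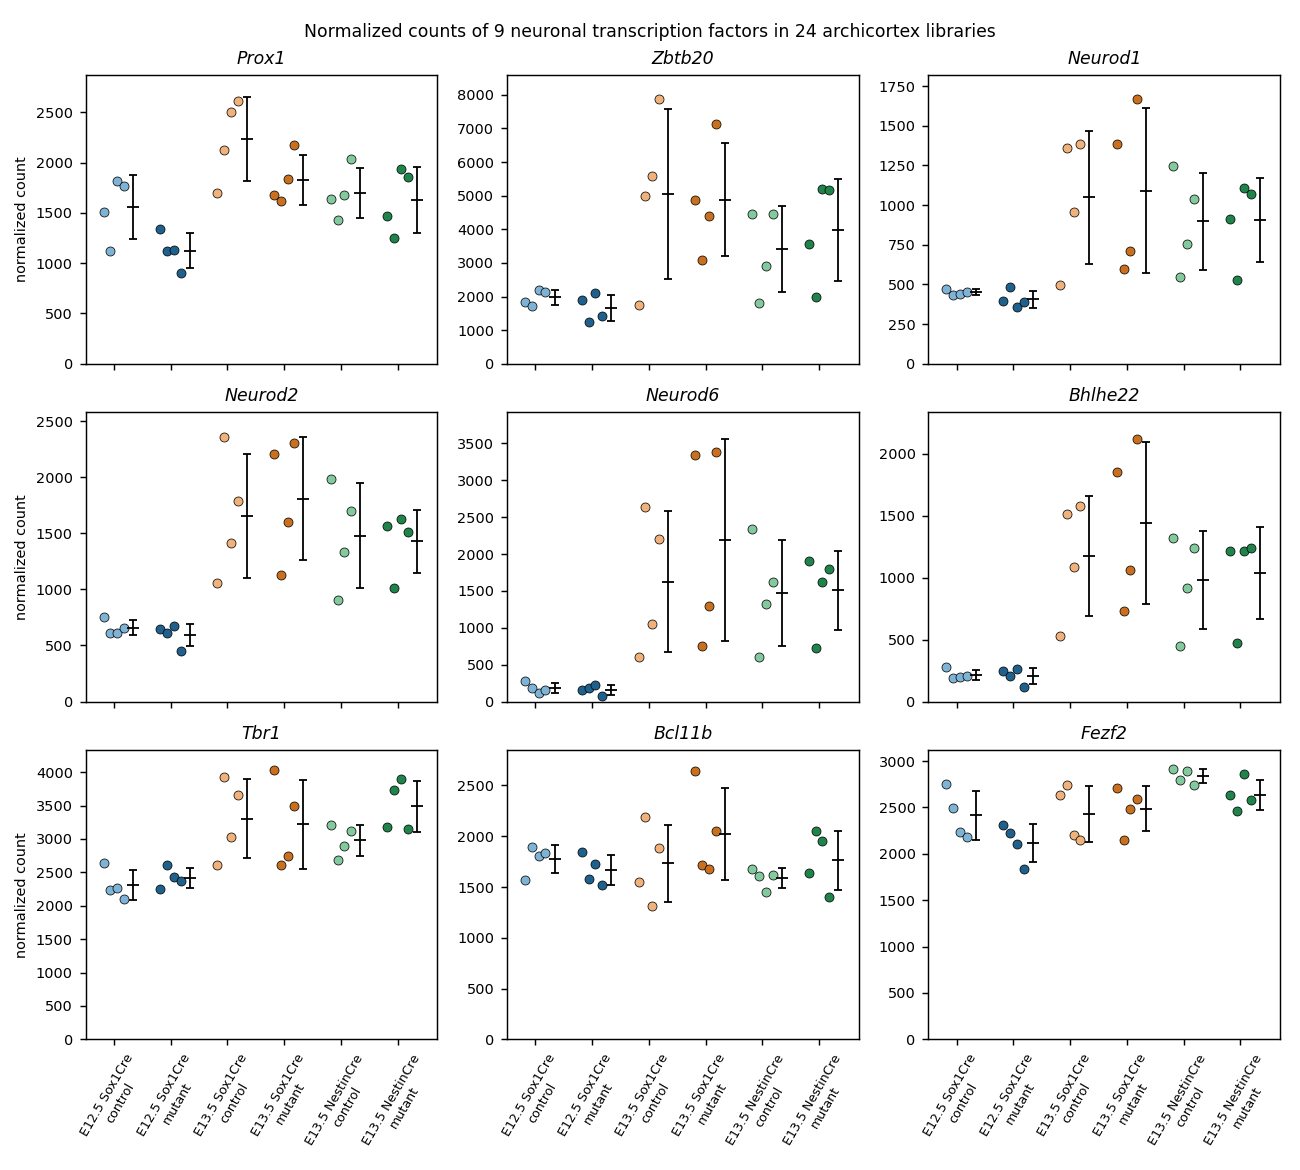
Normalized count (vertical axis, linear, from 0) of each of the 9 factors in the 24 libraries, by group; points are libraries, and the bar beside each group is the mean ± SD (n = 4). *Neurod1*, *Neurod2*, *Neurod6*, *Bhlhe22* and *Zbtb20* sit low at E12.5 and spread widely at E13.5, with mutants and controls of the same age over each other, while *Fezf2* stays between 1832 and 2911 throughout.

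*Prox1* (chr1:190118035-190170714 on GRCm38, minus strand) encodes a homeodomain factor that specifies and maintains dentate granule neurons. At E12.5 its normalized count was 1513, 1126, 1815 and 1772 in controls and 1337, 1125, 1133 and 904 in Sox1Cre mutants. The mutants were on the low side, 2 of 4 of them under every control, but the groups overlapped. *Prox1* showed the lowest adjusted p of the 9 factors in any comparison of mutants with controls: the log2 change was -0.46 (95% confidence interval -0.81 to -0.10), with an unadjusted p of 0.0140, an adjusted p of 0.238 and a two-sided exact permutation p of 0.0857, where 35 splits of 8 libraries allow no p below 0.0286. Over the 10 other settings its adjusted p ranged from 0.150 to 0.327, and with each library left out in turn from 0.135 to 0.519.

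At E13.5 *Prox1* stood at 1699.8, 2125, 2504 and 2616 in Sox1Cre controls and at 1682, 1617, 1835 and 2177 in Sox1Cre mutants. The change was -0.28 (95% interval -0.64 to 0.07, adjusted p = 0.557) on the log2 scale. In the NestinCre line it was 1635, 1433, 1683 and 2034 in controls and 1473, 1246, 1935 and 1856 in mutants, a change of -0.07 (95% interval -0.43 to 0.28, adjusted p = 1). The 2 E13.5 changes did not differ detectably from each other (difference -0.21, 95% interval -0.71 to 0.29, adjusted p = 0.929), nor did the E13.5 and E12.5 changes of the Sox1Cre line (difference 0.18, 95% interval -0.33 to 0.68, adjusted p = 0.906). With age *Prox1* rose by 0.70 in mutants (adjusted p = 0.0050), where all E13.5 libraries lay above all E12.5 libraries. In controls the rise was 0.53 (adjusted p = 0.0492), 3 of 4 E13.5 libraries lay above all E12.5 libraries, and this call was lost in 4 of 10 other settings and when any of 6 of the 8 libraries was left out. An antisense gene, *Prox1os*, shares 133 exonic bases with *Prox1*, and the strand setting of the counting is not given in the sources used here, but its mean normalized count over the 24 libraries was 16.5.

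*Zbtb20* (chr16:42875881-43642602, plus strand), a zinc finger repressor needed for hippocampal neuron identity, had the largest SD of normalized counts of the 9 factors within each E13.5 group, not scaled to the mean. Sox1Cre controls stood at 1754, 4994, 5579.5 and 7863 and Sox1Cre mutants at 4862, 3101, 4410.0 and 7139. At E12.5 the controls stood at 1843, 1715, 2208 and 2122 and the mutants at 1894, 1254, 2093 and 1431. Library A5, an E13.5 control, held the lowest of the 8 E13.5 values and lay within the E12.5 range. The rise with age was 1.51 in mutants (adjusted p = 0.0067), where the ages did not overlap, and 1.17 in controls, just above the threshold (adjusted p = 0.0514). Without A5 the change in controls was 1.62 (adjusted p = 0.0032), and it also passed in 4 of 10 other settings: a mean of at least 100 (adjusted p = 0.0482), array weights (adjusted p = 0.0064), edgeR (adjusted p = 0.0214) and DESeq2 (adjusted p = 0.0066). NestinCre controls stood at 4457, 1818, 2909.6 and 4442 and NestinCre mutants at 3568, 1990.3, 5192 and 5166, again with 1 low library in each group. The changes in mutants were 0.08 at E13.5 and -0.26 at E12.5 in the Sox1Cre line and 0.22 in the NestinCre line. Their 95% intervals were -0.72 to 0.87, -1.06 to 0.53 and -0.58 to 1.01, and their adjusted p was 0.972, 0.810 and 1.

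The NeuroD factors are basic helix-loop-helix activators that follow the proneural genes in newborn neurons. *Neurod6* (chr6:55677822-55681263, minus strand), a marker of postmitotic excitatory neurons of the cortex and hippocampus, stood at 276, 188, 123 and 152 in E12.5 controls and at 151, 184, 225 and 73.9 in E12.5 mutants. At E13.5 it reached 599, 2631, 1052 and 2206 in Sox1Cre controls and 3339, 747, 1294 and 3382 in Sox1Cre mutants. All 8 E13.5 values lay above all 8 E12.5 values, and the mutants and controls of each age overlapped. On the log2 scale the rise was 2.97 in controls (SE 0.53, adjusted p = 0.0026), which is 7.81-fold, and 3.62 in mutants (SE 0.53, adjusted p = 0.000188), which is 12.3-fold. The 2 rises did not differ detectably (difference 0.66, 95% interval -0.90 to 2.22, adjusted p = 0.880). NestinCre controls at E13.5 stood at 2344, 608, 1321 and 1616 and NestinCre mutants at 1900.1, 727, 1625 and 1790.4. Because libraries of 1 group differed up to 4.53-fold, the 95% interval of the mutant change was wide, from -0.71 to 1.497 in the Sox1Cre line and from -1.003 to 1.204 in the NestinCre line at E13.5.

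*Neurod2* (chr11:98325415-98329648, minus strand), which acts in the same postmitotic neurons, stood at 754, 609, 615 and 657 in E12.5 controls and at 645, 612, 671 and 452 in E12.5 mutants. At E13.5 it stood at 1058, 2356, 1411 and 1789.6 in Sox1Cre controls and at 2206, 1128, 1599 and 2305 in Sox1Cre mutants. The ages did not overlap in either genotype, and the rise was 1.27 (adjusted p = 0.0045) and 1.56 (adjusted p = 0.000352). NestinCre controls stood at 1986, 901, 1329 and 1701 and NestinCre mutants at 1568, 1013, 1627 and 1508, a change of -0.01 (95% interval -0.54 to 0.52). In the Sox1Cre line the mutant change was 0.14 at E13.5 and -0.16 at E12.5, with adjusted p of 0.903 and 0.832.

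*Neurod1* (chr2:79452521-79456751, minus strand), needed for granule neurons to form and survive, was the most even of the 3 at E12.5, with 474, 434, 439 and 455 in controls and 395, 484, 355 and 390.0 in mutants. At E13.5 it stood at 497, 1359, 953 and 1382 in Sox1Cre controls and at 1383, 597, 711 and 1670.0 in Sox1Cre mutants. The lowest E13.5 control, A5, was still above the highest E12.5 control. *Neurod1* rose by 1.11 in controls (adjusted p = 0.0355) and by 1.301 in mutants (adjusted p = 0.0072). The call in controls was lost when any library but A5 was left out, with adjusted p up to 0.123. It was also lost with no filter on low values (adjusted p = 0.0568) and with the *Xist* covariate, where the change was 0.63 (adjusted p = 0.452). NestinCre values ran from 547 to 1246 in controls and from 531 to 1108 in mutants, a change of 0.03 (adjusted p = 1). Changes in Sox1Cre mutants were 0.03 at E13.5 and -0.16 at E12.5 (adjusted p = 0.9904 and 0.8751).

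*Bhlhe22* (chr3:18054174-18057517, plus strand) encodes a basic helix-loop-helix repressor expressed in postmitotic cortical neurons. It stood at 277, 192, 197 and 206 in E12.5 controls and at 243, 208, 259.7 and 119 in E12.5 mutants. By E13.5 it had reached 531, 1516, 1084 and 1578 in Sox1Cre controls and 1854, 732, 1061 and 2122 in Sox1Cre mutants. The rise was 2.33 in controls (5.01-fold, adjusted p = 0.0026) and 2.73 in mutants (6.63-fold, adjusted p = 0.000209), with no overlap between ages. Mutants and their controls overlapped at each age (changes of 0.29 at E13.5 and -0.12 at E12.5, adjusted p = 0.859 and 0.931). NestinCre controls stood at 1316, 451, 919 and 1242 and NestinCre mutants at 1218, 476, 1217 and 1236.

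*Tbr1* (chr2:61802930-61814114, plus strand), a T-box factor of early-born glutamatergic neurons, was already abundant at E12.5, from 2105 to 2635 in controls and from 2251 to 2604 in mutants. At E13.5 it stood at 2615, 3920.5, 3023 and 3651 in Sox1Cre controls and at 4027, 2605, 2745 and 3492 in Sox1Cre mutants. The lowest E13.5 control lay within the range of the E12.5 controls, and the lowest E13.5 mutant (2605) only just above the highest E12.5 mutant (2604). Its rise was smaller than those above, 0.50 in controls (adjusted p = 0.0153) and 0.39 in mutants (adjusted p = 0.0273). Each call depended on single libraries: it was lost without A6 or A8 in controls and without A1, A4, A9 or A12 in mutants, with adjusted p up to 0.106. In mutants it was also lost with the libraries of the comparison only (adjusted p = 0.0838), and in controls with the *Xist* covariate (change 0.39, adjusted p = 0.254). In the NestinCre line *Tbr1* was 3212, 2689, 2897 and 3117 in controls and 3185, 3734, 3899 and 3145 in mutants. There 2 of 4 mutants lay above every control, and the change of 0.23 (95% interval -0.04 to 0.49) had an adjusted p of 0.869 and an exact permutation p of 0.0857.

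*Bcl11b* and *Fezf2*, zinc finger factors best known from subcortically projecting neurons, passed the threshold with age in neither genotype. *Bcl11b* (chr12:107910403-108003602, minus strand) ran from 1572 to 1891 in E12.5 controls, from 1522 to 1846 in E12.5 mutants, from 1310.2 to 2185 in E13.5 Sox1Cre controls and from 1674 to 2646 in E13.5 Sox1Cre mutants. Its change with age was -0.06 in controls (95% interval -0.36 to 0.25) and 0.26 in mutants (95% interval -0.05 to 0.56). *Fezf2* (chr14:12342094-12348189, minus strand) varied least of the 9 within groups at E13.5. It stood at 2753, 2492, 2232 and 2186 in E12.5 controls, 2311, 2220.1, 2108 and 1832 in E12.5 mutants, 2636, 2744, 2199 and 2153 in E13.5 Sox1Cre controls and 2709.7, 2146, 2485 and 2596 in E13.5 Sox1Cre mutants. In controls its change with age was 0.01 (95% interval -0.18 to 0.20). In mutants the change was 0.23 (95% interval 0.04 to 0.42, adjusted p = 0.0655), and it passed without A2 (adjusted p = 0.0193) or without A9 (adjusted p = 0.0481).

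*Fezf2* in E12.5 mutants, at -0.19 (95% interval -0.38 to -0.00, unadjusted p = 0.0493, adjusted p = 0.370), was with *Prox1* 1 of 2 factors under an unadjusted p of 0.05 in a comparison of mutants with controls. NestinCre controls stood at 2911, 2801, 2893 and 2747 for *Fezf2*, above all 4 Sox1Cre controls of the same age, the closest of which was at 2744. This was the 1 factor whose groups did not overlap between the 2 control genotypes, in a direction taken by 2.86% of genes tested, and its change of -0.23 in Sox1Cre against NestinCre controls had an adjusted p of 0.361 and an exact permutation p of 0.0286, the smallest possible. *Prox1* was higher in Sox1Cre than in NestinCre controls by 0.39 (95% interval 0.04 to 0.75) with an adjusted p of 0.425. These 2 had an unadjusted p under 0.05, and none of the 9 passed in that comparison, against 0.243% of all genes tested.

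**Figure D2:**
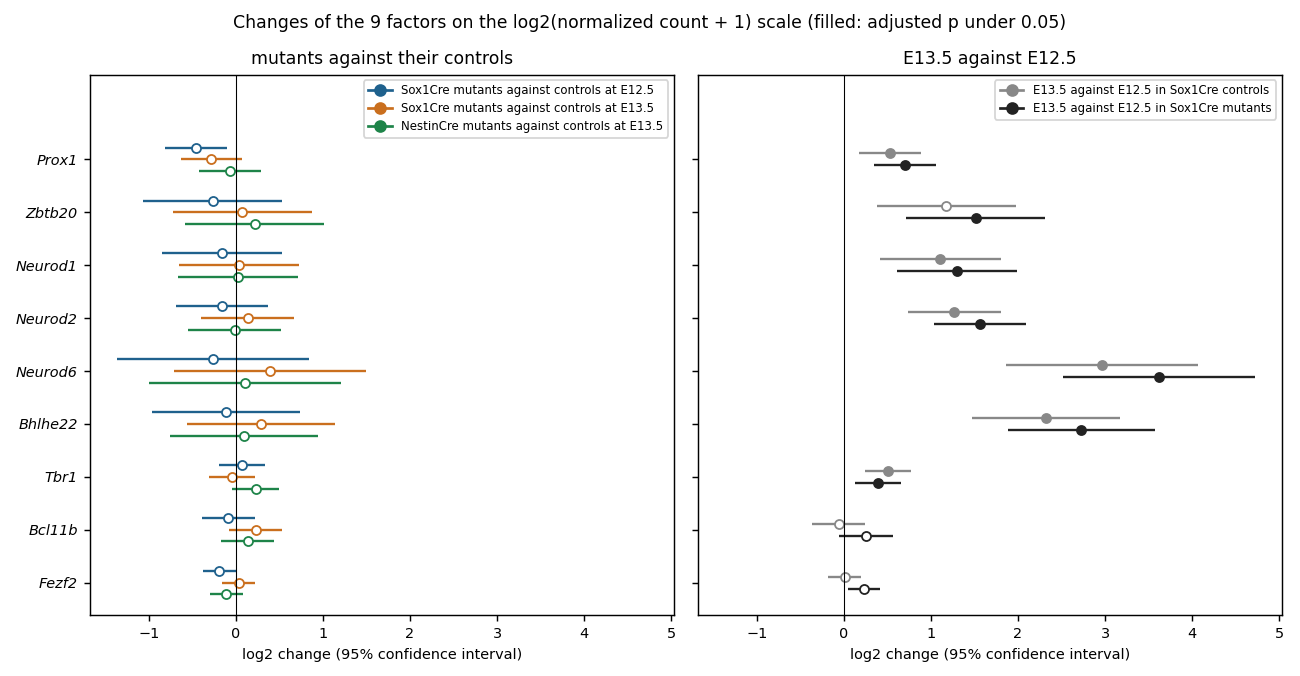
Change of each of the 9 factors on the log2(normalized count + 1) scale (horizontal axis) with its 95% confidence interval, in mutants against their controls (left) and at E13.5 against E12.5 (right); filled points have an adjusted p under 0.05. No point on the left is filled, and 6 and 7 points on the right are filled, from 0.39 for *Tbr1* to 3.62 for *Neurod6*.

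How small a change could have been seen differed between the factors. The 95% interval of a mutant change reached 0.19 to either side of the estimate for *Fezf2* and 1.10 for *Neurod6*, so for *Neurod6* a 2-fold rise lay inside the interval at E13.5 in both lines. Changes of the 9 in mutants ran from -0.28 to 0.39 in the Sox1Cre line at E13.5, from -0.11 to 0.23 in the NestinCre line and from -0.46 to 0.07 at E12.5, with medians of 0.08, 0.09 and -0.16 beside medians of -0.00, -0.00 and 0.00 over all genes tested. No factor's mutants and controls were without overlap, a state found in 5.06%, 4.98% and 10.3% of genes tested. edgeR and DESeq2 on the recovered reads also called 0 of the 9 in each of the 3 comparisons. The difference between the Sox1Cre and NestinCre changes at E13.5 and that between the E13.5 and E12.5 changes passed for 0 of 9, with 0 under an unadjusted p of 0.05, beside 0.0425% and 0% of all genes tested.

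For the age comparison in controls a further variable runs with age. *Xist*, the RNA expressed from the inactive X chromosome of females, was between 3526 and 5934 in 11 libraries and at most 6.41 in the other 13. All 4 E12.5 Sox1Cre controls were high and all 4 E13.5 Sox1Cre controls were low, so age and *Xist* level cannot be told apart there. With log2 *Xist* as a covariate the rises in controls kept their sign but none passed: 2.52 for *Neurod6* and 1.93 for *Bhlhe22* (adjusted p = 0.110 for both), 0.997 for *Neurod2* (adjusted p = 0.149), 0.39 for *Tbr1* (adjusted p = 0.254), 0.47 for *Prox1* (adjusted p = 0.313) and 0.63 for *Neurod1* (adjusted p = 0.452), and 0 of all genes tested passed by limma, with 2460 under an unadjusted p of 0.05.

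Sox1Cre mutants had 2 *Xist*-high and 2 *Xist*-low libraries at each age, which allows age to be read within each class. *Neurod6* rose by 2.27 in the high class, from 184 and 225 to 747 and 1294, and by 4.98 in the low class, from 73.9 and 151 to 3339 and 3382. *Bhlhe22* rose by 1.92 and 3.54, *Neurod2* by 1.07 and 2.06, *Zbtb20* by 1.19 and 1.84, *Neurod1* by 0.65 and 1.95 and *Prox1* by 0.61 and 0.80, in the high and the low class. *Tbr1* changed by 0.09 in the high class and 0.70 in the low class. Each class sets 2 libraries against 2, which is too few for a test. How many of all genes tested separate by age in such a class was not counted, so no count of factors is given. *Bcl11b* changed by 0.03 and 0.48 and *Fezf2* by 0.09 and 0.37, in the high and the low class. *Xist* class was also uneven between Sox1Cre mutants and their controls, which were all of 1 class at each age. At E13.5 both *Xist*-low mutants lay above all 4 controls for *Neurod6* (controls at most 2631) and *Bhlhe22* (1854 and 2122 against at most 1578). For *Neurod1* they lay barely above (1383 and 1670.0 against at most 1382), and for the other factors they overlapped. These 2 mutants are A4 and A1, the library that stood apart from its group. How many of all genes tested lie above the controls in this way was not counted, so these values are a description. With the covariate none of the 9 passed in mutants against controls. The part of *Xist* class in these values was not tested beyond the covariate.

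Within a group, 5 of the 9 factors moved together from library to library. They were picked after their values were seen, so the pattern is given without a test. Deviations of a library from its own group mean, on the log2 scale, correlated at r between 0.73 and 0.96 (median 0.88, 24 libraries) for the 10 pairs among *Neurod1*, *Neurod2*, *Neurod6*, *Bhlhe22* and *Zbtb20*, and between -0.04 and 0.78 (median 0.43) for the other 26 pairs. The same 10 pairs had r between 0.82 and 0.98 over the 16 E13.5 libraries and between -0.73 and 0.99 over the 8 E12.5 libraries. Some of the other pairs were as close at E13.5, with r of 0.91 for *Prox1* and *Zbtb20* and 0.85 for *Tbr1* and *Bcl11b*. Values of 1 library share its dissection, RNA and size factor, so these figures are a description. Averaged over these 5 genes, 1 library stood lowest in each E13.5 group: A5 at -1.02, A2 at -0.82, A22 at -0.85 and A18 at -0.81. On the other side stood A4 at 0.67, A21 at 0.57, A8 at 0.55, A6 at 0.53 and A1 at 0.45. *Prox1* and *Tbr1*, which also rose with age, are outside these 5, and their r with each other was 0.19. With the 5, r of *Prox1* ran from 0.44 (*Neurod6*) to 0.78 (*Zbtb20*). That of *Tbr1* ran from 0.45 (*Zbtb20*) to 0.72 (*Neurod1*), close to the 0.73 of the weakest pair among the 5. By comparison, *Fezf2* and *Bcl11b* did not share the low values of A5 to the same degree, with deviations of 0.12 and -0.13.

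**Figure D3:**
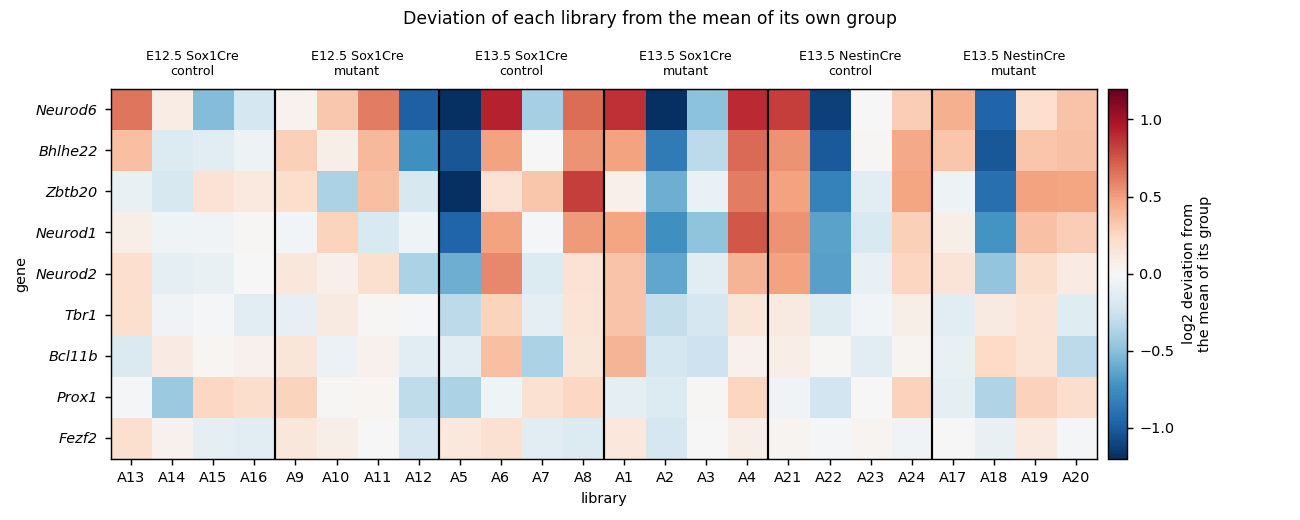
Deviation of each library from the mean of its own group on the log2 scale (colour, red above and blue below) for the 9 factors (rows) in the 24 libraries (columns, by group). Libraries A5, A2, A22 and A18 are blue for *Neurod6*, *Bhlhe22*, *Zbtb20*, *Neurod1* and *Neurod2* together, while *Fezf2* is pale throughout.

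The spread of these 5 genes within groups exceeded that of most genes at E13.5. Pooled over the 4 E13.5 groups, the SD of log2 values was 0.90 for *Neurod6*, above 98.8% of the 11830 genes with a mean of at least 100, and 0.71 for *Bhlhe22*, 0.69 for *Zbtb20*, 0.61 for *Neurod1* and 0.45 for *Neurod2*, beside a median of 0.13 over those genes. *Fezf2* was at 0.13, *Tbr1* at 0.22, *Prox1* at 0.25 and *Bcl11b* at 0.26. At E12.5 *Neurod1* (0.14) and *Neurod2* (0.21) were tighter, and *Neurod6* was still at 0.60. No batch, litter or dissection date is given in the labels.

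Each factor's nearest genes by this measure were sought among 11821 genes with a mean of at least 100. *Neurod6* was nearest to *Zbtb18* (r = 0.96), a repressor expressed in the neuronal lineage, then to *L1cam*, an axonal adhesion molecule, and *Atcay*. *Neurod2* was nearest to *Zbtb18* (r = 0.97), *Myt1l* and *Rusc2*, and *Bhlhe22* to *Ccser1* (r = 0.98), *Zbtb18* and *Sez6*. For *Neurod1* the nearest were *Mllt11* (r = 0.96), the synaptic vesicle gene *Sv2a* and the GABA-B receptor subunit gene *Gabbr1*. *Zbtb20* was nearest to *Htra1* (r = 0.97), *Lrrc75b* and *Slc35f1*. *Prox1* was nearest to *Igfbpl1* (r = 0.89), *Cacna2d3* and *Gper1*, and *Tbr1* to *Trim36* (r = 0.90), *Smpd3* and *Smim13*. *Fezf2* stood nearest to *Emx1* (r = 0.89) and *Lhx2* (r = 0.88), transcription factors of dorsal telencephalic progenitors, and *Dazap1*, and *Bcl11b* to *B3gat2* (r = 0.89), *Pou3f3* and *Sox11*. All r are over 24 libraries.

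Per kilobase of exon, *Fezf2* was the most abundant of the 9 in E12.5 controls, at 793 ± 86.1 normalized counts per kb (SD, n = 4), followed by *Tbr1* at 421 ± 41.6. *Bcl11b* (219 ± 17.3), *Neurod2* (210 ± 21.4), *Prox1* (186 ± 37.7) and *Neurod1* (165 ± 6.68) formed a middle group whose neighbours did not differ by more than the sum of their SDs, and *Neurod6* (85.8 ± 30.9), *Bhlhe22* (65.1 ± 11.97) and *Zbtb20* (64.2 ± 7.53) a low one. By E13.5 the order in Sox1Cre controls had changed to *Fezf2* (799 ± 98.7), *Neurod6* (755 ± 444), *Tbr1* (602 ± 108), *Neurod2* (526 ± 177), *Neurod1* (384 ± 153), *Bhlhe22* (352 ± 145), *Prox1* (267 ± 49.4), *Bcl11b* (214 ± 47.2) and *Zbtb20* (164 ± 82.02), with no neighbours further apart than the sum of their SDs. In Sox1Cre mutants at E13.5 *Neurod6* came first, at 1019 ± 637, and *Fezf2* second, at 815 ± 79.9. *Neurod6* was thus 7th of 9 at E12.5 and 1st or 2nd in all 4 E13.5 groups. Lengths are the union of annotated exons, and the 30730 bases of *Zbtb20*, over 21 transcripts, may exceed what these cells transcribe, which lowers its place.

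Beside the 9 factors, 37 other transcription factors of excitatory neurons and their precursors were read, all of them tested. With age 14 rose and 3 fell in controls, and 20 rose and 6 fell in mutants. The median changes were 0.37 and 0.48, beside -0.00 and -0.01 over all genes tested. Of all genes tested, 6.33% rose and 5.17% fell in controls, and 13.8% rose and 12.1% fell in mutants. The rises of lowest adjusted p were *Sox4* (0.73), *Nhlh1* (0.69), *Zbtb18* (1.17) and *Nfix* (1.17) in controls and *Nfix* (1.74), *Nfia* (0.96), *Nfib* (1.35) and *Zbtb18* (1.44) in mutants. The falls in controls were *Cux2* (-0.95), *Emx2* (-0.22) and *Dach1* (-0.21), factors of upper-layer precursors or of the neuroepithelium. In Sox1Cre mutants 1 of the 37 passed at each age, beside 0.924% of all genes tested at E13.5 and 0.723% at E12.5. An unadjusted p under 0.05 was found for 8 of the 37 at E13.5 and 9 at E12.5. The shares just given are for adjusted p and cannot be set beside these counts, which are not read as an excess. *Nhlh1*, a helix-loop-helix gene of newborn neurons, fell in Sox1Cre mutants at E13.5 (change -0.69, adjusted p = 0.0138), from 2770 ± 325 to 1736 ± 353 (SD, n = 4). *Neurod4*, a proneural relative of the NeuroD genes above, rose in Sox1Cre mutants at E12.5 (change 1.71, adjusted p = 0.0417), from 46.5 ± 23.5 to 145 ± 48.3. At E13.5 its change in Sox1Cre mutants was 1.44, from 119 ± 62.0 to 299 ± 94.96, with an unadjusted p of 0.00139 and an adjusted p of 0.0887. The changes at the 2 ages did not differ detectably (difference -0.27, adjusted p = 0.936). The study, which used DESeq2, reported *Neurod4* as raised in the E13.5 Sox1Cre mutants. In that comparison DESeq2 called 358 of all genes here and limma 152. In the NestinCre line none of the 37 passed by limma, with 0 under an unadjusted p of 0.05. The most abundant gene of the list was *Nfib*.

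Pan-neuronal genes, which mark neurons of any kind, moved with the rising factors. Their summed normalized count over 20 genes, of which *Map2* was the most abundant, ran from 34896 to 36748 in E12.5 controls, from 31178 to 35782 in E12.5 mutants, from 40386 to 63653 in E13.5 Sox1Cre controls and from 40919.6 to 69374 in E13.5 Sox1Cre mutants. In the NestinCre line it ran from 36917 to 55830.2 in controls and from 44626 to 53989 in mutants. A5, A2, A22 and A18 held the lowest sum of their groups. With age 14 of 20 rose and 0 fell in controls and 16 rose and 0 fell in mutants, beside 6.33% and 13.8% of all genes tested that rose, led by *Mapt* (2.66), *Stmn3* (1.21), *Ina* (1.58) and *Snap25* (1.96) in controls and by *Snap25* (2.44), *Stmn4* (2.47), *Mapt* (2.95) and *Scg3* (1.58) in mutants. The median change was 0.98 in controls and 1.21 in mutants, below the rises of *Neurod6* and *Bhlhe22* and above those of *Prox1* and *Tbr1*. None of the 20 passed by limma in any comparison of mutants with controls, with 1, 0 and 1 under an unadjusted p of 0.05 in Sox1Cre mutants at E13.5, NestinCre mutants and Sox1Cre mutants at E12.5. The part of neuron number in the change of the 9 factors with age was not tested.

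**Figure D4:**
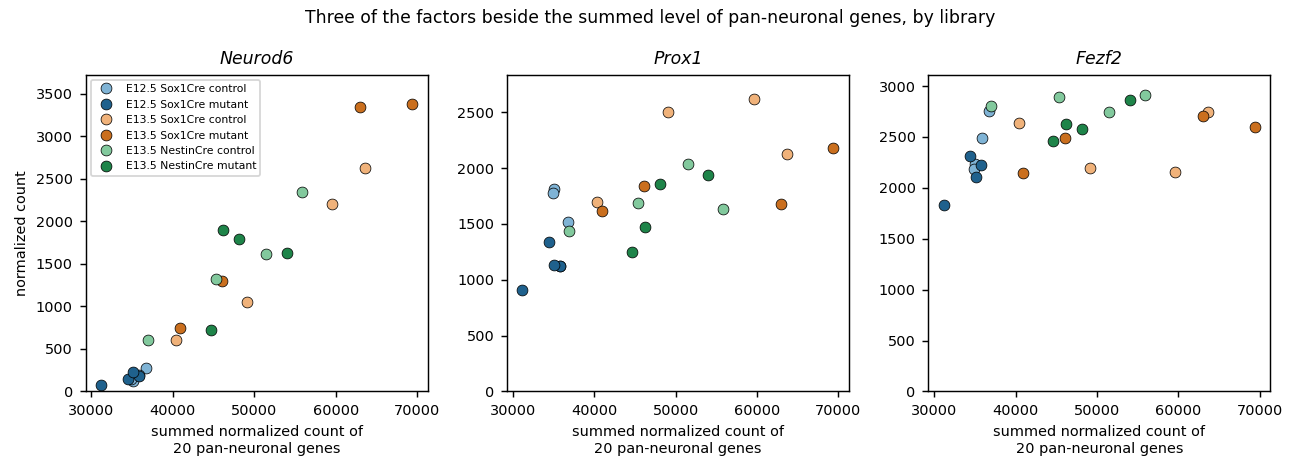
Normalized count of *Neurod6*, *Prox1* and *Fezf2* (vertical axes, linear, from 0) beside the summed normalized count of 20 pan-neuronal genes (horizontal axes), 1 point for each of the 24 libraries, coloured by group. *Neurod6* climbs with the sum across and within groups, *Prox1* climbs less, and *Fezf2* stays level.

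Markers of other cells that the dissection could hold also changed with age. Of 12 cortical hem genes, led in abundance by *Wnt8b*, 0 rose and 6 fell in controls and 0 rose and 10 fell in mutants, beside 5.17% and 12.1% of all genes tested that fell. The falls of lowest adjusted p were *Wnt8b* (-1.10), *Rspo1* (-1.03), *Rspo2* (-0.99) and *Wnt3a* (-0.83) in controls. Summed over the list, hem genes ran from 37904 to 59717 in E12.5 controls and from 21006 to 32264 in E13.5 Sox1Cre controls, and from 50590.1 to 71714 and from 17215 to 38212 in mutants of the same ages. Of 9 erythroid genes, which mark blood and were led by the embryonic globin *Hbb-y*, 6 fell in controls, and 5 fell and 1 (*Hbb-bs*) rose in mutants, beside the same shares of all genes, with sums of 193719 to 236028 at E12.5 and 82677 to 169878 at E13.5 in controls. The part of tissue composition in the change of the 9 factors with age was not tested.

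In mutants, of the hem, erythroid, choroid plexus, ventral telencephalon, diencephalon, meninges, endothelium, microglia and hippocampal field lists, together 80 genes tested, 0 passed in any of the 3 comparisons with controls by limma, and 3 in each had an unadjusted p under 0.05. Genes of the ventral telencephalon, of which 8 of 15 were tested, summed to at most 6037 in any library, in A18 of the NestinCre mutants, the library low for *Neurod6* above. Their sum was 4402 ± 1127 in NestinCre mutants and 3623 ± 309 in NestinCre controls (SD, n = 4), with a median change of 0.42 over the list and 2 genes under an unadjusted p of 0.05, and their part in the values of the 9 factors in that line was not tested. Genes of the diencephalon, 8 of 12 tested, summed to at most 3078. Among 12 radial glia genes *Sox9*, *Vim* and *Hopx* fell in Sox1Cre mutants at E13.5, *Sox9* and *Hopx* at E12.5 and *Sox9* in NestinCre mutants, and among 10 Cajal-Retzius genes *Ebf3* fell in Sox1Cre mutants at E13.5. Of 11 intermediate progenitor genes *Neurod4*, which is also on the list of excitatory neuron factors, was the 1 that passed, in Sox1Cre mutants at E12.5, and its values at both ages are given above.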

How the data were processed

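The study sequenced poly(A) RNA of dissected ARK (KAPA mRNA HyperPrep, Illumina sequencing). Per the submitters' notes the authors trimmed reads with Trimmomatic 0.36, aligned them with STAR 2.5.2a, counted genes with RSEM 1.2.31 on GRCm38 and divided counts by DESeq2 size factors. The deposited signal, the normalized count, therefore corrects for depth but not for gene length. The strand setting is not given in the sources used here. Values came out as whole multiples of 1 read (tolerance 0.01), which gave each library's reads. GENCODE M21 named 51719 of 51912 gene IDs.

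The 16454 genes that reached 10 normalized counts in 4 or more libraries were tested with limma 3.58.1 (R 4.3.3) on log2(value + 1), with 6 group means, 18 residual degrees of freedom, a mean-variance trend and Benjamini-Hochberg adjustment over all of them, threshold 0.05. Fold changes are on that scale. Exact permutation tests were two-sided over 35 splits. Groups followed the labels. Replicates of 1 group differed beyond counting noise (chi-square per degree of freedom 8.24 to 78.0 over 36 pairs, the 3 highest all with A1). Alternatives were pseudocounts of 0.5 and 5, no filter, a mean of at least 100, libraries of the comparison only, quantile normalization, an *Xist* covariate, array weights, leaving out each library, and edgeR 4.0.16 and DESeq2 1.42.0 on recovered reads. Python 3.11.15 was used for summaries, and the fits were tested on simulated data.

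The 9 factors were named in every comparison, with *Sox9* as a check. Of each other list the genes past the threshold were named, at most 4 per list and comparison by adjusted p, with the most abundant gene, and for each factor the 3 genes most alike in deviations from group means. Where a count of 5 or fewer genes fell outside this rule, its genes were named after their values were seen (*Cux2*, *Emx2* and *Dach1* in controls, *Hbb-bs*, and genes of the lists that close the text). The factors and all lists were chosen with earlier results of these data known.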

Additional observations from a re-analysis of the deposited data

Results flagged for a closer look

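In 2 of 54 sets of 4 libraries, 1 library stood far from the other 3 by Dixon's test (critical value 0.829), where chance gives about 1 in 20. Both were for *Bhlhe22*. Library A13 of the E12.5 Sox1Cre controls was at 277.2 normalized counts, above the other 3 at 192 to 206. Library A18 of the E13.5 NestinCre mutants was at 476.0, below the other 3 at 1217 to 1236, and *Neurod6*, *Neurod1*, *Neurod2* and *Zbtb20* were also lowest in A18 within that group.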

How the results depend on the processing

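None of the 9 factors passed in the 3 comparisons of mutants with controls under any of 90 combinations of factor and setting each, nor under 72 combinations each with a library left out. With age, the calls of *Neurod2*, *Neurod6* and *Bhlhe22* in controls were lost only with the *Xist* covariate, and those of *Prox1*, *Zbtb20*, *Neurod1*, *Neurod2*, *Neurod6* and *Bhlhe22* in mutants held in all 10 settings. Calls that other settings ended or gave, besides single libraries, were *Prox1* (4 of 10 settings), *Neurod1* (no filter, *Xist* covariate) and *Tbr1* (*Xist* covariate) ended in controls, *Tbr1* ended in mutants (libraries of the comparison only), and *Zbtb20* gained in controls (4 of 10). No called change reversed its sign. The count of all genes past the threshold moved more. In Sox1Cre mutants at E13.5 it was 152, and 44 with the libraries of the comparison only, 962 with array weights, 358 with DESeq2 and 90 (without A3) to 510 (without A1) with a library left out. In NestinCre mutants it was 11, and 5 with no filter, 5 at a mean of at least 100, 2 with the *Xist* covariate, 17 with array weights, 5 with edgeR, 37 with DESeq2 and 2 (without A18) to 7 (without A23) with a library left out. In Sox1Cre mutants at E12.5 it was 119, and 76 with the libraries of the comparison only, 577 with array weights, 294 with DESeq2 and 50 (without A13) to 139 (without A11) with a library left out. With age in controls it was 1892, and 0 with the *Xist* covariate, 3244 with array weights and 794 (without A6) to 2629 (without A5) with a library left out. With age in mutants it was 4263, and 2133 with the libraries of the comparison only and 2948 (without A12) to 4725 (without A2) with a library left out. Between controls it was 40, and 22 at a mean of at least 100, 108 with array weights, 157 with DESeq2 and 11 (without A23) to 31 (without A5) with a library left out. The difference between lines gave 7, and 13 with the libraries of the comparison only, 369 with array weights, 95 with DESeq2 and 5 (without A3) to 144 (without A1) with a library left out. The difference between ages gave 0 by limma (1217 under an unadjusted p of 0.05), 20 with DESeq2 and 0 to 1 with a library left out. The cause was not tested. No paired analysis was possible because each library carries its own number in the labels and no number is shared between groups.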

Other observations

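Other marker lists were counted with age in Sox1Cre embryos, beside 6.33% of all genes tested that rose and 5.17% that fell in controls, and 13.8% and 12.1% in mutants. Several of the counts lie near these shares. Of 12 radial glia genes, which mark neuroepithelial stem cells and were led in abundance by *Vim*, 1 rose (*Hopx*) and 2 fell (*Prom1*, *Emx2*) in controls, and 6 rose and 3 fell (*Vim*, *Prom1*, *Emx2*) in mutants. Of 11 intermediate progenitor genes, led by *Neurog2*, *Gadd45g*, *Neurod4* and *Eomes* rose and *Mfng* and *Dll1* fell in controls, and *Gadd45g* and *Eomes* rose and *Dll1* and *Mfng* fell in mutants. Of 10 Cajal-Retzius genes, led by *Reln*, which encodes the secreted guidance protein reelin, 3 rose (*Reln*, *Calb2*, *Nhlh2*) in both genotypes, and 1 fell in controls (*Ebf2*) and 4 in mutants (*Ebf2*, *Trp73*, *Lhx5*, *Ebf3*). Of 12 hippocampal field genes tested, led by *Nectin3*, 2 rose (*Mpped1*, *Nrp2*) and 1 fell (*Calb1*) in controls, and 3 rose (*Mpped1*, *Kctd4*, *Nrp2*) and 2 fell (*Grik4*, *Nectin3*) in mutants.

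Choroid plexus genes, led by the transthyretin gene *Ttr*, gave 0 calls by limma in controls, with 4 of 8 under an unadjusted p of 0.05 and a median change of 1.14. In mutants 2 of 8 rose (*Aqp1*, *Kl*), with 3 under an unadjusted p of 0.05 and a median change of 0.48. *Aqp1* changed by 1.95 in controls (adjusted p = 0.0516) and by 2.11 in mutants (adjusted p = 0.0189), and the sum of the list ranged from 7982 to 90460 within E13.5 Sox1Cre mutants. Among 9 meningeal genes, led by *Col3a1*, *Aldh1a2* and *Dcn* rose in both genotypes, and 3 (*Foxd1*, *Lum*, *Foxc1*) fell in mutants. Among 8 diencephalon genes, led by *Lhx9*, 0 passed in controls, with 4 under an unadjusted p of 0.05, and 1 rose (*Lhx9*) and 3 fell (*Tal1*, *Tcf7l2*, *Irx5*) in mutants. No gene of the ventral telencephalon, endothelium (led by *Kdr*) or microglia (led by *Csf1r*) lists passed with age by limma.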
